A study of Rattus norvegicus with 12 samples.

Results

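The islets of Langerhans release a small set of peptide hormones, and 10 of their genes were followed here in an insulin-secreting tumour line of the rat, INS-1 832/13. They were picked by name from the 28727 named genes of the count table and were Ins1, Ins2, Iapp, Gcg, Sst, Ppy, Pyy, Npy, Ucn3 and Ghrl. The cells had been transduced with an adenovirus that carried GFP, as the control, or ChREBPβ, the short and constitutively active isoform of the carbohydrate response element binding protein, a glucose-responsive transcription factor encoded by Mlxipl. Glucose in the medium was 2 mM or 11 mM during the 48 h of culture, which made 4 groups of 3 libraries, 12 in all, named a, b and c within a group. All cells were of a single clonal tumour line and all received a virus, so there was no group without virus and no primary islet cell among them. The labels do not name separate cultures, and the study describes its averages of these data as taken over independent experiments. The p-values below measure the spread between libraries within groups. For edgeR, that spread was estimated from all 12 libraries in 1 fit and drawn towards the spread of other genes. This gave 19.1 degrees of freedom for the tested hormone genes.

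In an islet, β-cells make insulin and package it with islet amyloid polypeptide (amylin), α-cells make glucagon, δ-cells somatostatin, PP cells pancreatic polypeptide and ε-cells ghrelin. Rats and mice have a pair of insulin genes, Ins1 and Ins2. Each hormone is made as a longer precursor, cut by prohormone convertases and stored in dense-core granules, and transcription factors such as PDX1, MAFA and NEUROD1 act on the insulin promoters. The tumour line is a β-cell model, and INS-1 lines are known to carry transcripts of other islet hormones as well.

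The promoters of the 4 abundant hormone genes are shown because regulators discussed further on are known to act there. Only some of them do so through a homeodomain core (TAAT) or through E-boxes (CANNTG). The sequences are the 250 bases before the annotated start in RefSeq's GRCr8 assembly of the rat, 5′ to 3′ on the strand of the gene, and capitals mark TAAT and CANNTG matches on either strand. They lie at chr1:261185869-261186118 on the plus strand for Ins1, chr1:207273806-207274055 on the minus strand for Ins2, chr4:176967847-176968096 on the plus strand for Iapp and chr3:67531534-67531783 on the minus strand for Gcg. The counts were made on another build, and no coordinate was taken from them.
Ins1: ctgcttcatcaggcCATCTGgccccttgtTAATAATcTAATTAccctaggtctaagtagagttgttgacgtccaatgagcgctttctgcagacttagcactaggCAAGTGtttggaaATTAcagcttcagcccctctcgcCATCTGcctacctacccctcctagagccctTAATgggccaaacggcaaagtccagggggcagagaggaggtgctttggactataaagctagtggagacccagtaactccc
Ins2: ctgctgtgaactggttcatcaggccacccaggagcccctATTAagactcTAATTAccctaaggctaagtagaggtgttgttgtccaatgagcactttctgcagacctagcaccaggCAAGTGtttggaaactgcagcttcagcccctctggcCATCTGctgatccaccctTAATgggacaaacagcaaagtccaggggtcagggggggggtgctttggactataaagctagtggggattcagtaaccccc
Iapp: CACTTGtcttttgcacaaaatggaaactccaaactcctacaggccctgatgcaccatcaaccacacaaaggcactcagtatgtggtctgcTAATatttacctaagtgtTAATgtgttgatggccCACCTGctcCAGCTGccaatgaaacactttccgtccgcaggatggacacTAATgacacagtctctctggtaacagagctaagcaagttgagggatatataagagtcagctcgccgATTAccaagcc
Gcg: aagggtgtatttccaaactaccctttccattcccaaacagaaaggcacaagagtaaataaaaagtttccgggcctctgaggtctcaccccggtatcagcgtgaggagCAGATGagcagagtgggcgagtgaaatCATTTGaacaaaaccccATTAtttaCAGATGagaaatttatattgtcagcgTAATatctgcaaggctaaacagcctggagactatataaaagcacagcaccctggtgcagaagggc

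A TAAT was found 6 times before Ins1, 4 times before Ins2, 4 times before Iapp and 2 times before Gcg, and 57% of 33469 rat promoter windows of this length held at least 1. Overlapping matches were counted separately, as in the run of TAAT matches before Ins1. CANNTG occurred 3, 2, 3 and 3 times in the same order, and 65.5% of all windows held it. Its form CATCTG, which is also counted as CANNTG, occurred 2 times before Ins1, 1 time before Ins2 and 2 times before Gcg, was not matched before Iapp and was in 14% of all windows. CACGTG, the E-box form known from carbohydrate response elements, was in 5.59% of all windows and in 0 of the windows of the 10 hormone genes, which says only that these letters are not in these 250 bases. The Ins1 and Ins2 windows were identical at 209 of 237 aligned bases (88.2%). The same method gave 153 of 202 (75.7%) for Ins1 and Iapp, 145 of 205 (70.7%) for Ins1 and Gcg and 149 of 212 (70.3%) for Iapp and Gcg. Bases opposite a gap were left out, and no unrelated windows were aligned, so these shares have no baseline. All 10 genes matched a RefSeq entry by symbol.

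A library held 25754488 to 60531215 counts in total, and depth differed between groups and was greatest in ChREBPβ cells at 11 mM. Levels are given below as CPM, counts per 1000000 counts after TMM scaling for library size and composition, and 3 counts corresponded to 0.0512 to 0.11 CPM. The Mlxipl entry was lower in ChREBPβ than in GFP cells (log2 fold change -0.33 at 2 mM and -0.14 at 11 mM), and a separate ChREBPb entry, looked at after its values were seen, was slightly higher (0.21 and 0.37). How reads of the mouse transgene were counted is not given in the sources used here, so neither entry checks the labels. Pklr and Txnip, known targets of ChREBP, were higher with ChREBPβ at 2 mM by 1.69 and 4.12 (log2) and at 11 mM by 1.08 and 0.93.

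The 10 genes fell far apart in abundance. Ins1, Ins2, Iapp and Gcg had 727 counts or more in every library, Ghrl had 24 to 112, and Npy, Ucn3, Pyy, Ppy and Sst had at most 15, 9, 6, 4 and 2. Ins1 alone took 1.14% to 1.31% of all counts in GFP cells at 2 mM and 0.336% to 0.369% in ChREBPβ cells at 11 mM. Of the 10 genes, 6 passed edgeR's filter on low counts (Ins1, Ins2, Iapp, Gcg, Ghrl and Npy), as did 14669 genes in all. Npy passed only through its GFP 2 mM group. Transcript lengths were not used here, so levels of different genes are not compared. In these bulk libraries, fewer cells that make a hormone and less of its RNA per cell cannot be told apart.

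The label of an insulin-secreting cell was borne by Ins1, Ins2, Iapp, Pdx1, Mafa, Nkx6-1, Slc30a8, Slc2a2 and Glp1r, the 9 of 11 β-cell markers that passed the filter. The other two, G6pc2 and Ucn3, had at most 2 and 9 counts in any library. Among 10 α-cell markers, 4 were tested, including Gcg, Gc and Slc7a2, whereas Irx2, Pou3f4 and Loxl4 had at most 1 count in any library. Among 8 δ-, PP- and ε-cell markers, 4 were tested, namely Hhex, Ghrl, Lepr and Fxyd6. Group means of Fxyd6 were 67.4 to 188 CPM. Of the others, Sst, Rbp4 and Ghsr had at most 2 counts in any library and Ppy at most 4.

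Ins1 encodes the first rat preproinsulin. In GFP cells at 2 mM glucose it was at 10820, 11550 and 12660 CPM in libraries a, b and c, and 11 mM glucose gave 9180, 8114 and 9061 CPM. ChREBPβ cells had 4224, 4365 and 4338 CPM with 2 mM, against 3465, 3832 and 3517 CPM with 11 mM. No pair of groups overlapped, and the order was GFP 2 mM, GFP 11 mM, ChREBPβ 2 mM and ChREBPβ 11 mM.

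Ins2 encodes the second preproinsulin, the gene orthologous to human INS. Its values were 66.1, 70.9 and 79.7 CPM in GFP cells at 2 mM, and 45.1, 38.5 and 47.7 CPM with 11 mM. ChREBPβ cells held 26.03, 27.06 and 27.86 CPM at 2 mM and 17.7, 20.5 and 21.3 CPM at 11 mM. The order of the groups was that of Ins1, again without overlap. The level of Ins2 is uncertain, because Ins1 and Ins2 are near copies whose reads the counting could split, and because Ins2 overlaps a further annotated locus, LOC108349673, in RefSeq.

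Iapp encodes amylin, which is secreted with insulin. Its values were 2645, 2742 and 2607 CPM in GFP cells at 2 mM, 1959, 1986 and 1923 CPM in GFP cells at 11 mM, 917.3, 900.4 and 907.1 CPM in ChREBPβ cells at 2 mM, and 750.8, 753.6 and 799 CPM in ChREBPβ cells at 11 mM. The groups stood in the same order as for both insulin genes and did not overlap. The libraries of a group lay close together, with a coefficient of variation of 0.94% to 3.5%.

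Gcg encodes proglucagon, the precursor of glucagon and of the glucagon-like peptides. GFP cells held 1589, 1666 and 1616 CPM at 2 mM and 1719, 1605 and 1647 CPM at 11 mM. ChREBPβ cells held 430.2, 440.1 and 429.1 CPM at 2 mM and 450.5, 480.9 and 501.7 CPM at 11 mM. Here the GFP groups overlapped, both lay above all ChREBPβ libraries, and the ChREBPβ group at 11 mM lay above that at 2 mM.

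**Figure D1:**
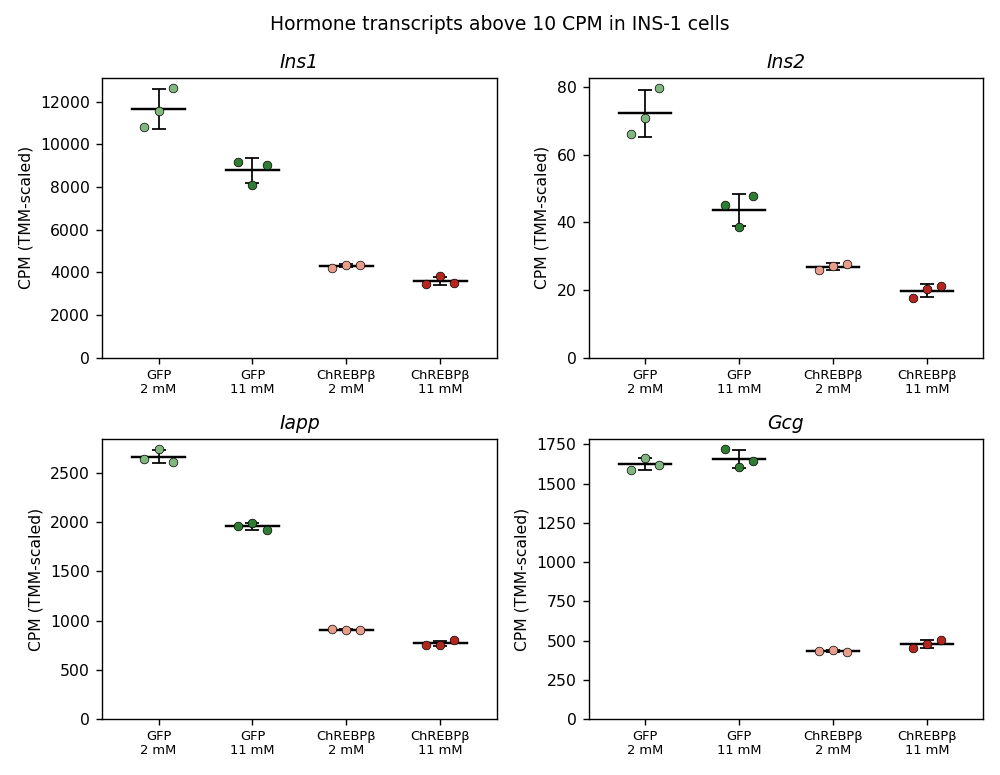
CPM after TMM scaling of Ins1, Ins2, Iapp and Gcg in each library (points), by virus and glucose, with the mean (line) and SD (bars) of 3 libraries and axes that start at 0. Ins1, Ins2 and Iapp step down from GFP 2 mM to ChREBPβ 11 mM, whereas Gcg lies at 1589 to 1719 CPM in all GFP libraries and at 429.1 to 501.7 CPM in all ChREBPβ libraries.

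Whether the transduced ChREBPβ changed the hormone transcripts was first asked at 2 mM glucose. All 4 abundant hormones were lower in ChREBPβ than in GFP cells, and Gcg fell the most of them. Gcg went from 1624 ± 39.1 to 433 ± 6.08 CPM (SD, n = 3 each), a log2 fold change of -1.91 ± 0.0436 (SE), or 26.7% of its control level (edgeR adjusted p = 5.65e-18). Iapp went from 2665 ± 69.4 to 908 ± 8.49 CPM, a log2 fold change of -1.55 ± 0.0378, leaving 34.1% (edgeR adjusted p = 1.42e-17).

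Both insulin genes fell by a like amount at 2 mM. Ins1 went from 11677 ± 927 to 4309 ± 75.1 CPM, a log2 fold change of -1.44 ± 0.0559, leaving 36.9% (edgeR adjusted p = 2.09e-14). Ins2 went from 72.2 ± 6.86 to 27.0 ± 0.917 CPM, a log2 fold change of -1.42 ± 0.0809, leaving 37.4% (edgeR adjusted p = 1.02e-11). Ranked by log2 fold change from the lowest, Gcg stood at place 60, Iapp at 200, Ins1 at 274 and Ins2 at 286 of the 14669 genes tested.

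With a call set at an adjusted p under 0.05 and at least 1.2-fold, the 4 abundant hormone genes were lower at 2 mM and 0 hormone genes were higher. Npy was called lower as well, but it was tested only through the GFP 2 mM group and is not counted here. Of all genes tested, 44.1% were called at 2 mM, 21% as higher and 23.2% as lower. The median log2 fold change of the 5 other tested hormone genes was -1.44 and that of all tested genes was -0.0168.

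At 11 mM glucose the same contrast gave somewhat smaller changes of the same sign. Gcg was at 28.8% of its control level, from 1657 ± 57.6 to 478 ± 25.8 CPM (SD, n = 3 each; log2 fold change -1.79 ± 0.0433, edgeR adjusted p = 3.58e-17). Iapp was at 39.3%, from 1956 ± 31.5 to 768 ± 27.0 CPM (log2 fold change -1.35 ± 0.0376, edgeR adjusted p = 2.63e-16). Ins1 was at 41%, from 8785 ± 584 to 3605 ± 199 CPM (log2 fold change -1.29 ± 0.0557, edgeR adjusted p = 1.93e-13).

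Ins2 was at 45.2% at 11 mM, from 43.8 ± 4.73 to 19.8 ± 1.87 CPM (log2 fold change -1.15 ± 0.0814, edgeR adjusted p = 4.49e-10). The called hormone genes at 11 mM were these 4, all lower, of 5 tested without Npy, where 33.4% of all genes were called, 14.3% as higher and 19.1% as lower. The median log2 fold change of the 5 was -1.28, against -0.0173 over all tested genes.

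Whether the effect of ChREBPβ depended on glucose was tested as an interaction, the log2 fold change at 11 mM minus that at 2 mM. It was 0.20 ± 0.0522 for Iapp (95% interval 0.0945 to 0.313, edgeR adjusted p = 0.0199), so that Iapp was lowered less at 11 mM. The estimate was 0.15 for Ins1 (interval -0.00915 to 0.315, edgeR adjusted p = 0.272), 0.27 for Ins2 (0.0344 to 0.512, adjusted p = 0.168) and 0.11 for Gcg (-0.0127 to 0.237, adjusted p = 0.299). The call for Iapp was lost in 5 fits that left out a library, namely GFP 2 mM b, GFP 11 mM c, ChREBPβ 2 mM b, ChREBPβ 2 mM c or ChREBPβ 11 mM c, and over all alternatives its estimate lay between 0.173 and 0.23 and its adjusted p between 0.000744 and 0.0692. Without Npy, 1 of 5 hormone genes was called for the interaction, where 8.07% of all genes were called.

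**Figure D2:**
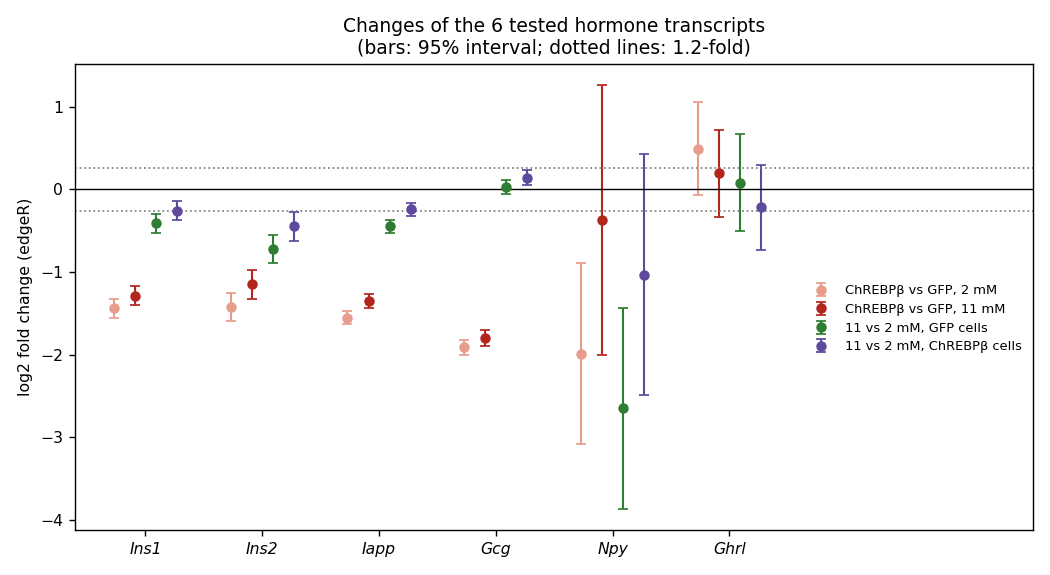
Log2 fold changes (vertical axis) of the 6 tested hormone genes in the comparisons of virus at each glucose level and of glucose within each virus, from the edgeR fit, with 95% intervals (bars) and the 1.2-fold limits (dotted lines). Ins1, Ins2, Iapp and Gcg lie between -1.91 and -1.15 in both virus comparisons with narrow intervals, whereas the intervals of Npy and Ghrl are wide.

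The effect of glucose itself was measured in GFP cells, where 11 mM glucose lowered both insulin genes and Iapp but gave no call for Gcg. Ins2 changed most of the abundant genes, by a log2 fold change of -0.72 ± 0.0783, which left 60.7% (edgeR adjusted p = 7.91e-07). Iapp changed by -0.45 ± 0.0370, leaving 73.4% (edgeR adjusted p = 2.57e-08), and Ins1 by -0.41 ± 0.0549, leaving 75.2% (edgeR adjusted p = 9.23e-06). For Gcg the log2 fold change was 0.03 with a 95% interval of -0.0587 to 0.117 (edgeR adjusted p = 0.638), an interval that lies within the 1.2-fold limits. Without Npy, 3 of 5 hormone genes were called lower and 0 higher, where 20.2% of all genes were called, 10.2% higher and 10% lower.

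In ChREBPβ cells the estimated response to glucose was smaller than in GFP cells for Ins1, Ins2 and Iapp and larger for Gcg. As the interaction above shows, this difference was called only for Iapp, and not in every fit. Only Ins2 met both limits of the call in ChREBPβ cells, with a log2 fold change of -0.45 ± 0.0832 (edgeR adjusted p = 0.00185). Ins1 at -0.26 (edgeR adjusted p = 0.00575), Iapp at -0.24 (0.000344) and Gcg at 0.14 (0.0472) passed the adjusted p but not the minimum of 1.2-fold. Of all genes, 3.87% were called in this comparison, 0.988% as higher and 2.88% as lower. Ins1 met the minimum fold without ChREBPβ 2 mM a (-0.269), without ChREBPβ 11 mM b (-0.304) and with library totals as the scale (-0.274), and Iapp met it without ChREBPβ 11 mM c (-0.272). The adjusted p of Gcg lay between 0.0104 and 0.225 over all alternatives.

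Between the groups that differed in both virus and glucose, the extremes were ChREBPβ at 11 mM against GFP at 2 mM. Ins2 was there at 27.4%, Iapp at 28.8%, Gcg at 29.4% and Ins1 at 30.9% of the GFP 2 mM level (log2 fold changes -1.87, -1.80, -1.77 and -1.70, largest edgeR adjusted p among them 1.11e-13). All 4 were called, as were 50.5% of all genes. These comparisons share libraries with those above and add no independent data.

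ChREBPβ cells at 2 mM were also below GFP cells at 11 mM for all 4 abundant genes. Gcg was at 26.1% (log2 fold change -1.94), Iapp at 46.4% (-1.11), Ins1 at 49.1% (-1.03) and Ins2 at 61.7% (-0.70, edgeR adjusted p = 7.11e-07, the largest of the 4). All 4 were called, as were 27% of all genes.

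A ratio of raw counts within a library does not depend on how the libraries were scaled. Ratios of Ins2, Iapp, Gcg and Npy to Ins1 were compared in all 6 pairs of groups, 24 exact two-sided permutation tests in all, in which 3 against 3 libraries cannot give a p below 0.1 and the smallest value after Benjamini-Hochberg adjustment was 0.185. None could therefore pass a threshold of 0.05, and the ratios are given as values.

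Gcg stood at 146.9, 144.2 and 127.7 counts per 1000 Ins1 counts in GFP cells at 2 mM, and 11 mM gave 187.3, 197.8 and 181.8. ChREBPβ cells had 101.8, 100.8 and 98.93 with 2 mM, against 130.0, 125.5 and 142.6 with 11 mM. The ratio was thus lower with ChREBPβ at both glucose levels, by -0.47 and -0.51 on the log2 scale, and higher at 11 mM with either virus, by 0.44 in GFP and 0.40 in ChREBPβ cells. Groups did not overlap in these 4 comparisons, each with an exact p of 0.1. The ratio in ChREBPβ cells at 11 mM overlapped that in GFP cells at 2 mM (exact p = 0.4).

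Ins2 stood at 6.114 to 6.293 counts per 1000 Ins1 counts in GFP and at 6.163 to 6.422 in ChREBPβ cells at 2 mM, which overlap. At 11 mM it stood at 4.749 to 5.268 in GFP and 5.118 to 6.056 in ChREBPβ cells, which overlap as well. Between glucose levels the ranges did not overlap, and the ratio was lower at 11 mM by a log2 difference of -0.32 in GFP and -0.19 in ChREBPβ cells (exact p = 0.1 each).

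Iapp kept between 196.7 and 244.7 counts per 1000 Ins1 counts over all 12 libraries. Its groups overlapped in all 6 comparisons, with mean ratios of 229.2, 223.4, 210.9 and 213.5 in the order GFP 2 mM, GFP 11 mM, ChREBPβ 2 mM and ChREBPβ 11 mM.

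**Figure D3:**
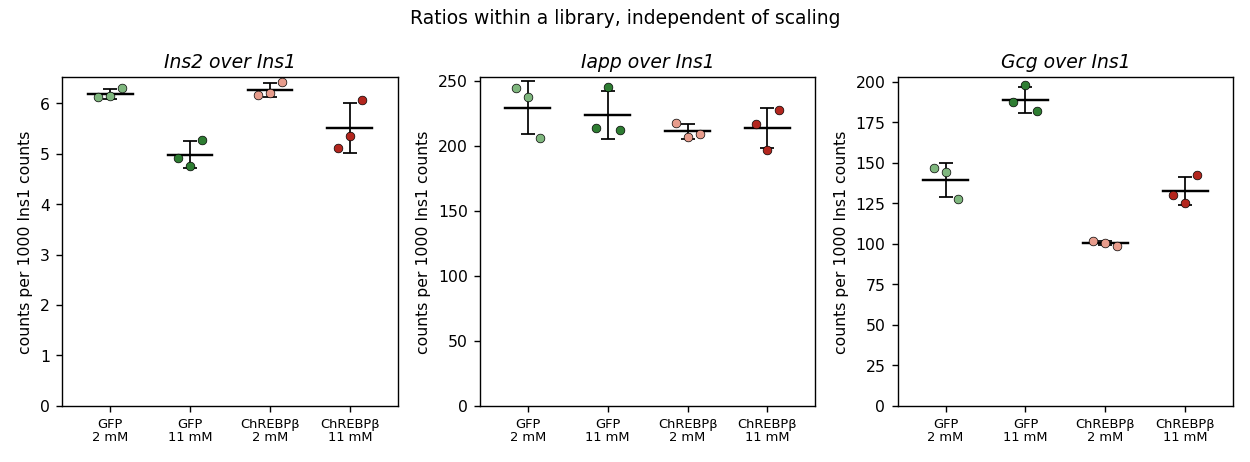
Raw counts of Ins2, Iapp and Gcg per 1000 raw counts of Ins1 in each library (points), by virus and glucose, with the mean and SD of 3 libraries and axes that start at 0. The Gcg ratio runs from 98.93 to 101.8 in ChREBPβ cells at 2 mM to 181.8 to 197.8 in GFP cells at 11 mM, whereas the Iapp ratios of all groups overlap.

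Over the 12 libraries, Pearson's r of log2 CPM was 0.993 between Ins1 and Iapp, 0.978 between Ins1 and Ins2, 0.96 between Iapp and Gcg, 0.955 between Ins1 and Gcg and 0.881, the lowest among the 4 abundant genes, between Ins2 and Gcg. These values describe libraries that share 4 group means and are no test. Ghrl ran the other way, with r from -0.51 to -0.48 against the 4 abundant genes.

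Over the 10467 tested genes that averaged 5 CPM or more, those whose pattern was most like Ins1 were Edem2 (r = 0.9969), Scgn (0.9966), Ptprn (0.9962), Pld3 (0.9962) and Cpe (0.9954). Scgn encodes the calcium-binding protein secretagogin, Ptprn the granule protein IA-2 and Cpe carboxypeptidase E, which trims prohormones. Those most like Gcg were Tm4sf4 (0.9971), Gcsh (0.9966), Nptxr (0.9964), Ripply3 (0.996) and Cyp4a8 (0.9947). A correlation above 0.9 was common, with 1450 genes for Ins1 and 985 for Gcg.

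Ghrl encodes preproghrelin, the hormone of ε-cells. It had 33, 64 and 24 counts in GFP cells at 2 mM, 69, 42 and 68 in GFP cells at 11 mM, 57, 98 and 97 in ChREBPβ cells at 2 mM and 112, 95 and 61 in ChREBPβ cells at 11 mM. Scaled, these were 0.769 to 1.87, 1.13 to 1.53, 1.74 to 2.04 and 1.11 to 1.91 CPM, so that the virus groups overlapped at both glucose levels. For ChREBPβ over GFP the log2 fold change was 0.49 with 2 mM glucose (95% interval -0.0737 to 1.06, edgeR adjusted p = 0.127) and 0.19 at 11 mM (-0.336 to 0.722, adjusted p = 0.556).

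No comparison gave a call for Ghrl, and its intervals leave room for changes of more than 1.2-fold in either direction at 11 mM. GFP 2 mM b decided the value at 2 mM. Without that library the log2 fold change was 0.893 with an edgeR adjusted p of 0.014, and over all alternatives the adjusted p lay between 0.014 and 0.498.

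Npy encodes neuropeptide Y, which islet cells can make in early life. Npy had 6, 15 and 12 counts in GFP cells at 2 mM, 4, 2 and 1 in GFP cells at 11 mM, 4, 4 and 4 in ChREBPβ cells at 2 mM, and 3, 2 and 2 in ChREBPβ cells at 11 mM. The GFP 2 mM group lay above the others. Because Npy was tested only on account of that group, its fitted log2 fold changes of -1.99 for ChREBPβ at 2 mM and -2.65 for glucose in GFP cells (edgeR adjusted p = 0.00292 and 0.00134) are given as a description. At 11 mM the log2 fold change for ChREBPβ was -0.37 with an interval of -2 to 1.26 (edgeR adjusted p = 0.721).

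Ucn3, the gene of urocortin 3 and a marker of mature β-cells, had 1, 9 and 5 counts in GFP cells at 2 mM and 3, 2 and 4 at 11 mM. It had 4, 4 and 2 counts in ChREBPβ cells at 2 mM and 0 in each of the 3 ChREBPβ libraries at 11 mM. Those libraries were deep, so that 3 counts would have been 0.0512 to 0.0548 CPM, and the GFP libraries at the same glucose held 0.0536 to 0.0846 CPM.

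Pyy encodes peptide YY, a hormone of the gut and of some islet cells. It had 3, 2 and 5 counts in GFP cells at 2 mM, 2, 6 and 3 at 11 mM, and in ChREBPβ cells 0, 0 and 5 at 2 mM and 1, 0 and 0 at 11 mM. Neither Ucn3 nor Pyy passed the filter, and no fold is given for values this near the level of 3 counts. With no filter on low counts, 20733 genes were tested. The edgeR adjusted p for ChREBPβ against GFP at 11 mM was then 0.0135 for Ucn3 and 0.0376 for Pyy, whereas at 2 mM it was 0.442 and 0.281. That fit called 5029 genes at 11 mM. It gave Ins1 an edgeR adjusted p of 7.06e-104 there, against 1.93e-13 in the main fit. Its p-values are therefore not on the scale of the main fit and are given as a description. The Ucn3 value rests on the libraries without a count.

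Ppy, the gene of pancreatic polypeptide, had 13 counts in all 12 libraries together, with at most 4 in any of them (ChREBPβ 2 mM a). Sst, the gene of somatostatin, had 5 counts in all, at most 2 in a library, and 0 in all 3 ChREBPβ libraries at 11 mM. A difference between groups was not detectable at this depth for either gene.

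**Figure D4:**
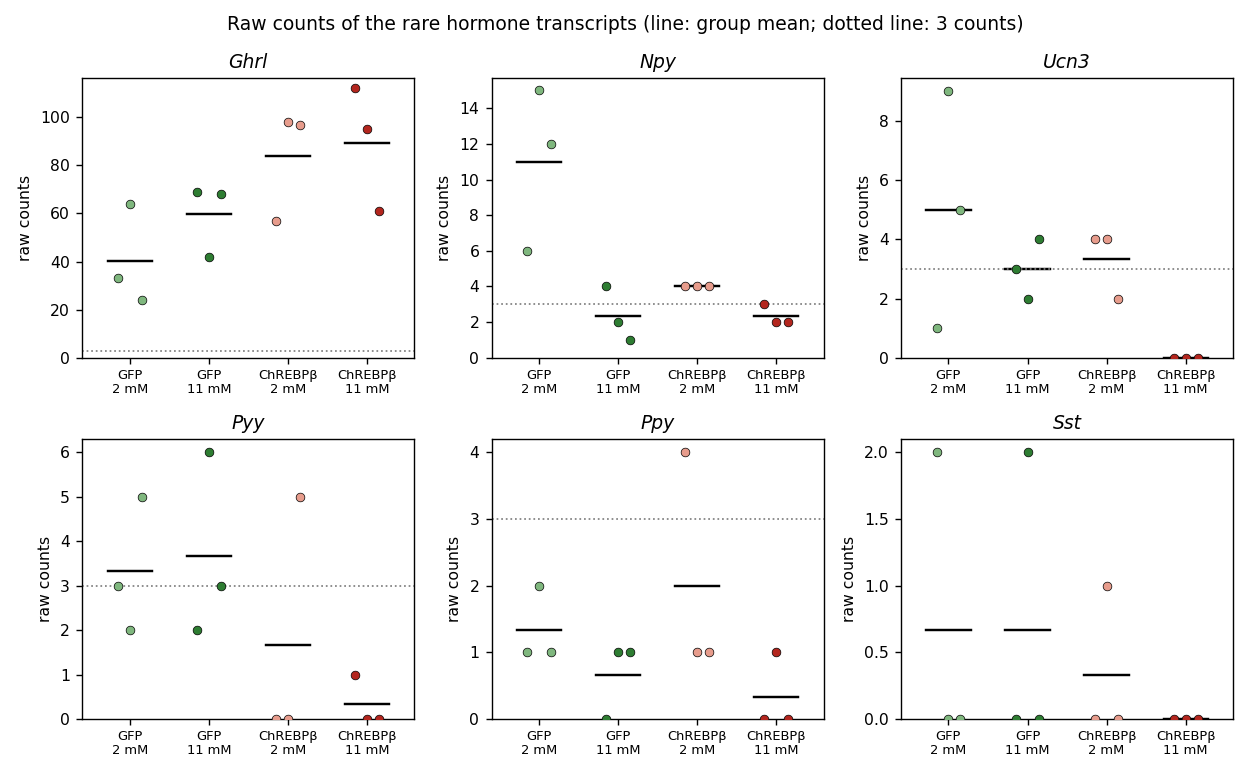
Raw counts of the 6 rare hormone genes in each library (points) by virus and glucose, with the mean of 3 libraries (solid line), 3 counts (dotted line) and axes that start at 0 and differ between panels. Libraries differ in depth, so heights compare only roughly between groups. Ghrl holds 24 to 112 counts, Npy is above 4 counts only in GFP cells at 2 mM, and Ucn3 is at 0 in ChREBPβ cells at 11 mM.

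The transcription factors that act on hormone genes were mostly lower together with the hormones. Of 20 listed regulators, 17 were tested, and with ChREBPβ 12 were lower and 3 higher at 2 mM, and 10 lower and 2 higher at 11 mM, where 44.1% and 33.4% of all genes were called. Medians of their log2 fold changes were -0.88 for 2 mM and -0.69 for 11 mM. Nkx6-1 and Glis3 were among those with the largest changes at 1 CPM or more. Nkx6-1, a β-cell homeodomain factor, changed by -1.61 at 2 mM and -1.43 at 11 mM.

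Glis3, a zinc finger factor that acts on the insulin promoter, changed by -1.60 and -1.34 (log2 fold change at 2 and 11 mM). Pdx1 and Mafa, activators of the insulin genes, changed by -1.06 and -0.78 and by -0.88 and -0.76. Pax6, which acts on both insulin and glucagon genes, changed by -1.16 and -0.96. Neurod1, the E-box factor of β-cells, changed by -0.39 at 2 mM and by -0.23 at 11 mM, where it missed the minimum fold.

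Against this direction, Pax4 was higher by 2.16 and 2.64 (log2 fold change at 2 and 11 mM), and Foxa2 by 0.35 at 2 mM with 0.23 and no call at 11 mM. Both genes were named after their values were seen. Pax4 was rare, with 0.234 CPM in GFP and 1.00 CPM in ChREBPβ cells at 2 mM. In GFP cells, where glucose changed 20.2% of all genes, 11 mM glucose lowered 10 of the 17 regulators, among them Mafa (-0.50), Pdx1 (-0.45) and Neurod1 (-0.27), and raised 1.

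Genes that process and store prohormones followed the same direction. All 20 were tested, and ChREBPβ lowered 14 and raised 1 at 2 mM and lowered 13 and raised 0 at 11 mM (44.1% and 33.4% of all genes were called), with median log2 fold changes of -0.78 and -0.70. The convertases Pcsk1 and Pcsk2, which cut proinsulin and proglucagon, changed by -1.61 and -1.29 and by -1.34 and -1.21 at 2 and 11 mM. Secretogranin II (Scg2), a granule matrix protein, changed by -1.35 and -1.18. The gene higher at 2 mM was Scg5 (0.46), which encodes 7B2, the chaperone of PCSK2, and it was named after its values were seen.

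Glucose in GFP cells lowered 4 of these 20 genes and raised 0, a share near the 20.2% of all genes called in that comparison. The 4 were Pcsk2 (-0.56), Scg2 (-0.65), Chgb (-0.31) and Slc30a8 (-0.41, log2 fold changes), of which Chgb and Slc30a8 were named after their values were seen.

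Of 22 receptors and receptor partners for these and related hormones, 13 were tested, and 9 were lower and 3 higher with ChREBPβ at 2 mM, and 7 lower and 3 higher at 11 mM, where 44.1% and 33.4% of all genes were called. The 3 higher ones at both levels were Ramp1, Gcgr and Sstr3. Ramp1, which turns the calcitonin receptor into an amylin receptor, was at 0.236 CPM in GFP and 10.5 CPM in ChREBPβ cells at 2 mM (log2 fold change 5.51) and at 2.59 and 11.0 CPM at 11 mM (2.07). Calcr, the calcitonin receptor itself, was rare and lower by -0.98 and -1.04.

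Gcgr, the glucagon receptor, was higher by 1.22 and 0.39 with ChREBPβ (log2 fold change at 2 and 11 mM), and by 0.85 with glucose in GFP cells. Glp1r, which binds the glucagon-like peptide cut from proglucagon, was lower by -0.64 and -0.47 with ChREBPβ and by -0.63 with glucose in GFP cells. Insr, the insulin receptor, changed by -0.41 at 2 mM and by -0.06 without a call at 11 mM, and Igf1r, the related growth factor receptor, by -1.06 and -0.86.

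Among somatostatin receptors, Sstr3 was higher by 0.65 and 0.53 and Sstr1 lower by -1.15 and -1.11, while Sstr2 had log2 fold changes of -0.15 and -0.42 without a call. Crhr1, a receptor of corticotropin-releasing hormone and urocortin, was lower by -1.86 and -1.65. The preferred receptor of urocortin 3, Crhr2, was listed at 0 counts in every library, as were Ghsr, the ghrelin receptor, and Sstr4, Npy2r and Npy5r. Npy1r changed by -0.55 at 2 mM, with -0.35 and no call at 11 mM. Sstr5 and Npy4r had at most 10 and 12 counts.

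Other peptide hormones moved in both directions. Of 35 listed, 34 were in the table and 15 were tested, of which 12 reached the low-count filter with either virus. Among these 12, 3 were higher and 5 lower at 2 mM and 2 were higher and 5 lower at 11 mM, where 44.1% and 33.4% of all genes were called. Cck, the gene of cholecystokinin, was higher by 2.16 and 1.90 (log2 fold change at 2 and 11 mM), from 16.9 to 75.3 CPM and from 22.7 to 85.3 CPM. Stc1, the gene of stanniocalcin 1, was lower by -1.61 and -1.74, and Gast, the gene of gastrin, by -1.56 and -1.14.

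The remaining called ones were named after their values were seen. Tac1 (0.91 and 0.77) and, at 2 mM, Edn3 (0.78) were higher. Cartpt (-1.25 and -1.29), Igf2 (-0.78 and -0.55), Pomc (-0.58 at 2 mM) and Apln (-1.20 at 11 mM) were lower. Ucn and Adm were called higher too, but they passed the filter only through ChREBPβ libraries and their GFP means were at most 0.0424 CPM, under the level of 3 counts, so they are not counted above and no fold is given.

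**Figure D5:**
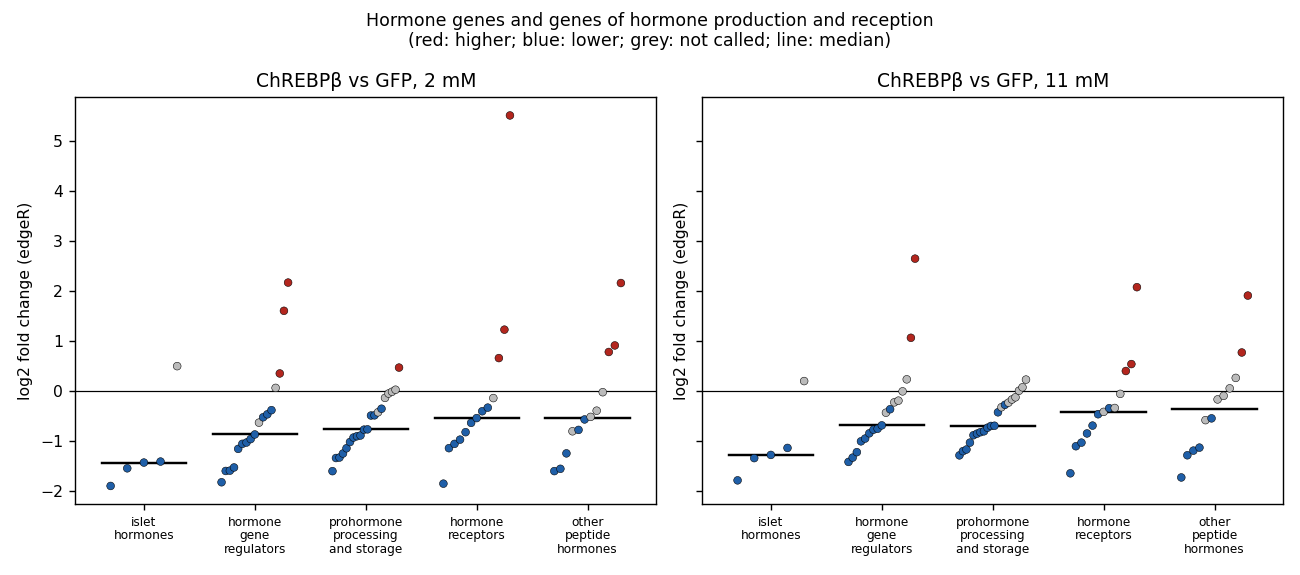
Log2 fold change (vertical axis) of ChREBPβ over GFP at 2 mM (left) and 11 mM (right) for each gene of 5 lists that reached the low-count filter with either virus (points), in red where called higher, in blue where called lower and in grey otherwise, with the list's median as a line. Npy, Ucn, Adm and Nmu did not and are not drawn. The medians of the islet hormones are -1.44 and -1.28, those of the regulators -0.88 and -0.69 and those of the processing and storage genes -0.78 and -0.70.

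Markers of other cells were looked at beside these results. The 4 tested α-cell markers, Gcg, Gc and Slc7a2 among them, were all lower with ChREBPβ at both glucose levels, and the summed level of the 10 α-cell markers was 2683 to 2784, 2543 to 2658, 1069 to 1083 and 1035 to 1122 CPM in GFP 2 mM, GFP 11 mM, ChREBPβ 2 mM and ChREBPβ 11 mM. Gcg made up much of these sums, and the other 9 markers summed to 1094 to 1117, 933 to 939.1, 629 to 653.9 and 584.4 to 619.9 CPM. For Gc, the vitamin D binding protein, the log2 fold changes were -0.77 and -0.64, smaller than those of Gcg. Of the 9 tested β-cell markers, 8 were lower and Slc2a2, the glucose transporter GLUT2, was higher by 0.50 and 0.46 at 2 and 11 mM. Slc7a2 and Slc2a2 were named after their values were seen.

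Of 8 δ-, PP- and ε-cell markers, 4 were tested (Hhex, Ghrl, Lepr and Fxyd6) and 1 was called, Fxyd6, with log2 fold changes of -1.10 and -0.88. The 8 summed to 179.8 to 195.9, 122.4 to 129.5, 88.81 to 92.02 and 65.3 to 72.6 CPM in the same order of groups, nearly all of it Fxyd6, since the other 7 summed to 1.41 to 2.71 CPM over all libraries. Acinar, duct, stromal and immune markers summed to 0.428 to 1.06 CPM in GFP and 1.28 to 2.79 CPM in ChREBPβ libraries, with Prss1, Pnlip, Cftr and Ptprc at 0. Of these 13 genes in the table, 2 were tested, Pdgfrb and Cd68, both named after their values were seen. Cd68 was higher at 2 mM (log2 fold change 1.04), and Pdgfrb passed the filter only through ChREBPβ libraries, so its call is not counted. Pdgfrb was also part of the higher sum, at group means of at most 0.00972 CPM in GFP cells. In ChREBPβ cells its means were 0.656 CPM at 2 mM and 0.824 CPM at 11 mM. Cdh5, also named after its values were seen, reached 0.394 CPM in 1 ChREBPβ library at 2 mM. The part of other cells in the decrease of the hormone genes was not tested.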

How the data were processed

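Total RNA of INS-1 832/13 cells was amplified (NuGEN Ovation) and sequenced in paired-end reads. The deposited values are raw counts of reads per gene, which the authors made with a tool not given in the sources used here. The submitters' processing notes name the build Rnor 6.0 and edgeR. The deposited table also holds the authors' group means of the counts, which were not used. The ratio of 2 genes was computed here from the deposited counts. An entry without a gene name (0.0043% to 0.006% of a library) was left out. Samples were grouped by their labels.

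With R 4.3.3 and edgeR 4.0.16, filterByExpr by group kept 14669 genes (minimum count 10), TMM factors (0.958 to 1.06) scaled the libraries, and all 12 entered 1 quasi-likelihood fit. The 6 pairs of groups and the interaction were contrasts. P-values were adjusted by Benjamini and Hochberg's method over the 14669 genes. A gene was called at an adjusted p under 0.05 and, except for the interaction, at least 1.2-fold. Intervals of 95% used the t distribution of that fit. On simulated counts with 199 genes changed and tested at 2 mM, edgeR recovered 188 (94.5%) and made 17 false calls beside them, with 14669 genes simulated. The simulation changed few genes and gave all genes the same dispersion, whereas 44.1% of genes were called at 2 mM in the data. It therefore does not measure the error rate of the calls reported here. Alternatives were DESeq2 1.42.0, other factors, library totals, other filters and minimum folds, a replicate block, fits of 2 groups and leaving out each library.

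Named genes were the 10 hormones, at most 3 called genes for each list and ChREBPβ comparison with the largest changes and at least 1 CPM, receptors of the hormones, the regulators Pdx1, Mafa, Neurod1, Nkx6-1 and Pax6, the 5 genes most like Ins1 and Gcg, and Mlxipl, Pklr and Txnip. Some genes that this rule names are not reported here. The members and lists were chosen with earlier results of these data known. Counts over lists are descriptions. Ratio tests were exact permutations in Python 3.11.15 with scipy 1.17.1. Whether the counting used strand is not given, so reads antisense to a hormone gene cannot be told apart. Fitted intervals rest on the spread between libraries. The level of 3 counts covers counting error only, and amplified reads are not independent molecules. Beside a list's background share, genes that reached the filter with only 1 virus were left out of the counts.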

Additional observations from a re-analysis of the deposited data

Results flagged for a closer look

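In the main fit, the effect of ChREBPβ on Iapp differed between the glucose levels. The log2 fold change of ChREBPβ over GFP was -1.55 at 2 mM and -1.35 at 11 mM, and the interaction term that compares them was 0.20 (edgeR adjusted p = 0.0199, range over all alternatives 0.000744 to 0.0692). All 3 ChREBPβ libraries were below all 3 GFP libraries at both levels. The call for Iapp was lost in 5 fits that left out a library. Estimates for Ins2 (0.27), Ins1 (0.15) and Gcg (0.11) had the same sign, with larger standard errors and no call.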

How the results depend on the processing

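Of 151 counts of called hormone genes under an alternative, 137 stayed within 1.5 times the main value, with Npy included in all of these counts. For glucose in GFP cells, a minimum of 2-fold left 1 hormone gene called. It was Npy, which was tested only through the GFP 2 mM group, and no abundant hormone gene stayed called. For glucose in ChREBPβ cells the number called was 2 with library totals and 2 with no filter on low counts. It was 4 with no minimum fold change, 0 at 2-fold, and 1 to 2 when a library was left out. The gene added with library totals was Ins1, where 613 of all genes were called. With no filter it was Ucn3 (edgeR adjusted p = 0.0473), which had 0 counts in each ChREBPβ library at 11 mM. That fit called 666 of 20733 genes. For the interaction it was 2 with no filter and 0 to 1 when a library was left out. The second interaction call was Ins2 (0.27, edgeR adjusted p = 0.0397, range over its alternatives 0.0397 to 0.355). It came from the fit with no filter, whose p-values are not on the scale of the main fit. DESeq2 called as many hormone genes as edgeR in every comparison.

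Among log2 fold changes, 807 of 822 kept direction and call, 6 gained a call, 5 lost one and 4 changed sign, all 4 in values without a call. Gcg for glucose in GFP cells was -0.00279 with library totals. When a library was left out, Npy for ChREBPβ at 11 mM ranged from -0.778 to 0.192, and Ghrl for glucose in GFP cells from -0.185 to 0.483. The sign changed without GFP 11 mM a (Npy), and without GFP 2 mM c and GFP 11 mM a (Ghrl). Of 168 ratios, 4 changed sign, all with overlapping groups. These were Ins2 over Ins1 for ChREBPβ at 2 mM (-0.000342 to 0.0311 on leaving out a library, with the sign changed without ChREBPβ 2 mM c), and Iapp over Ins1 for ChREBPβ at 11 mM (-0.111 to 0.00223, GFP 11 mM b), for glucose in GFP cells (-0.112 to 0.0123, GFP 2 mM a) and in ChREBPβ cells (-0.0301 to 0.074, ChREBPβ 11 mM c). The cause was not tested.

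Library totals without factors shifted the median of all genes by -0.116 between ChREBPβ at 11 mM and GFP at 2 mM, and other scalings shifted no median by more than 0.1. No pairing of libraries by letter was seen, but whether a letter marks a shared experiment is not given and was not decided by this. Same-letter libraries of different groups had correlations of their deviations from -0.114 to 0.0644, with a median of 0.0176 over 18 pairs. Libraries of other letters had -0.0871 to 0.159, with a median of -0.0102 over 36 pairs. With a replicate block on the letter, 5 hormone genes were called at 2 mM and 4 at 11 mM, and no call of a hormone gene changed.

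With 3 libraries a group, the rare hormones were limited by depth, and Npy could not be tested at 10 counts in every library.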
